A study of Rattus norvegicus with 8 samples.

Results

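Microcurrent-treated myofibroblasts were compared with healthy cardiac fibroblasts (CFs) to see what still separated the cells after electrical treatment. The comparison was set by the sample columns of the estimated count table, with the 4 libraries of treated cells pooled on one side and the 2 CF libraries on the other, so that 6 of the 8 libraries entered it. The remaining 2 libraries, from untreated myofibroblasts (MFs), served for the estimate of the spread and are given beside the results. All cells were rat cardiac cells. The CFs were neonatal cardiac fibroblasts of Wistar Kyoto rats, grown in medium with 10% fetal bovine serum (FBS). MFs were derived from CFs by continuous passaging to passage 3 in low-serum medium with 1% FBS. For the treated groups, MFs were exposed to a direct current of 1 µA/cm2 or 2 µA/cm2 for 72 h in medium with 10% FBS, with 2 libraries for each current density. The CFs were the starting cells and their passage at harvest is not given, nor is the serum in which untreated MFs were kept over the 72 h. Treated cells had gone through passaging in low serum before the current, so the effects of both in the comparison with CFs cannot be told apart here. The series calls the 2 libraries of a group biological replicates without naming the animals or cultures, so the p-values measure only the spread between these libraries.

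Cardiac fibroblasts are the resident cells of the heart that maintain its collagenous matrix. After injury they turn into myofibroblasts, which build contractile stress fibres with smooth muscle actin and secrete large amounts of matrix, and their persistence is a hallmark of cardiac fibrosis. Treated cells are thus myofibroblasts by origin, and CFs are the state from which those myofibroblasts were made. The deposited tables list genes by Ensembl rat ID alone, and the RefSeq gene table used here does not pair these IDs with symbols. No gene is therefore named by symbol or role, marker genes of the labelled cell types were not checked, gene lists by pathway were not counted, and no sequence is shown. At most 2 IDs are printed in each direction, with 1 further gene that differed between the current densities.

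The total of estimated counts was 28925937 to 31148230 in the treated libraries, 31880157 and 37903701 in CF replicates 2 and 1, and 26473085 to 27087607 in the MF libraries. Of 21867 genes in the table, 13849 passed the filter on low counts and were tested with edgeR's quasi-likelihood test. Calls required a fold change of at least 2 and a p below 0.05 after Benjamini-Hochberg adjustment. Levels are given as CPM, the count of a gene relative to the total of its library with TMM scaling, and they depend on transcript length, so they are compared between libraries and not between genes.

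Between the treated cells and CFs, 1060 genes were called, which is 7.65% of the genes tested. In the treated cells 584 genes (4.22%) were higher and 476 genes (3.44%) were lower, and 4234 genes (30.6%) had an unadjusted p below 0.05. In these bulk libraries, fewer cells of a type and less RNA per cell cannot be told apart. The median log2 fold change was 1.99 for the genes called higher, with quartiles of 1.41 and 2.90, and -2.07 for those called lower, with quartiles of -2.80 and -1.48. Over all tested genes the median was -0.01. A change of at least 4-fold was seen in 288 of the genes called higher and in 247 of those called lower, and 70 and 29 of them changed at least 16-fold. The median standard error of a log2 fold change was 0.33 among the former and 0.31 among the latter. In 16 of the genes called higher both CF libraries were at 0, and in 3 of those called lower all 4 treated libraries were at 0. With these genes set to the bound that 3 counts over the group without counts would give, the medians stayed at 1.99 and -2.07.

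**Figure D1:**
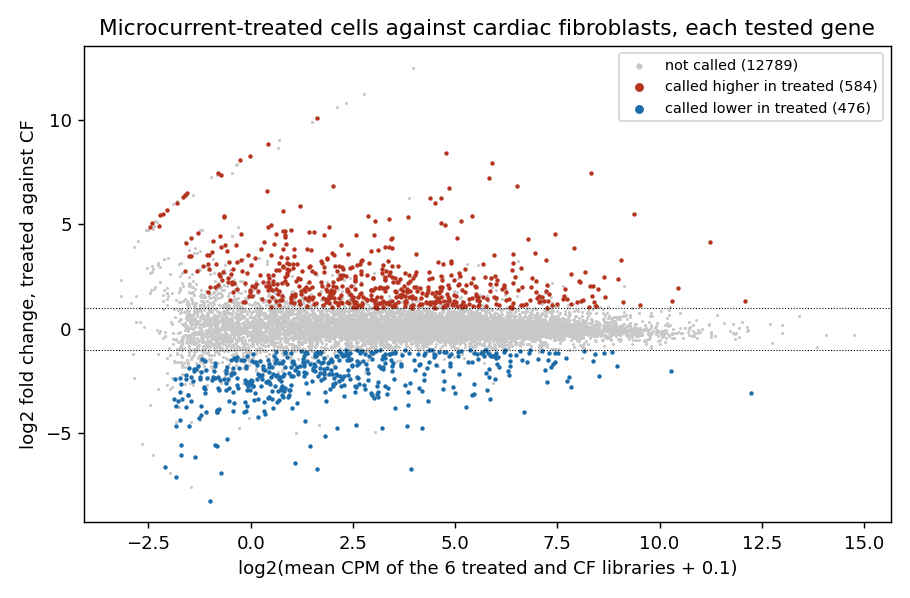
Each point is a tested gene, with the log2 of its mean CPM over the 6 treated and CF libraries (plus 0.1) on the x axis and the log2 fold change of treated cells against CFs on the y axis, and dotted lines mark a 2-fold change. The 584 genes called higher (red) and the 476 called lower (blue) spread over the whole range of levels, and the arc at the upper left holds genes with no or few counts in CFs.

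All 4 treated libraries lay above both CF libraries in each of the 584 genes called higher. They lay below both CF libraries in 475 of the 476 genes called lower. Without regard to the test, the treated and CF libraries did not overlap in 41% of all tested genes, 2836 (20.5%) with treated cells above and 2839 (20.5%) with treated cells below. Non-overlap was thus common among genes that were not called, and the calls rest on the size of the difference against the spread as well.

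The called genes were most frequent among genes with few reads. The tested genes were ordered by mean CPM over the 6 libraries and split into 5 bins. In the lowest bin, with a median of 0.991 CPM, 434 of 2770 genes (15.7%) were called, 188 higher and 246 lower in the treated cells. In the next bin 295 of 2770 genes (10.6%) were called. In the highest bin, with a median of 131 CPM, 114 of 2770 genes (4.12%) were called, 76 higher and 38 lower. The genes called lower were thus in the majority in the lowest bin and in the minority in each of the other 4. In 89 of the 584 genes called higher no CF library reached 10 counts, and in 73 of the 476 genes called lower no treated library did, so these genes were tested only through the libraries in which they were high.

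The genes called higher took 3.30% to 4.63% of all estimated counts in the treated libraries, against 0.905% and 1.27% in the CF libraries. The MF libraries held 4.44% and 4.50% of their counts in the same genes. For the genes called lower, the share was 0.713% to 1.04% in the treated libraries, 2.57% and 3.88% in the CF libraries, and 1.45% and 1.48% in the MF libraries. These shares describe genes that were chosen by the same contrast and carry no test.

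Among genes called higher, the largest change under the rule for printed IDs was that of ENSRNOG00000002843. Its level was 67.5 and 50.7 CPM in the 1 µA libraries, 37.8 and 7.12 CPM in the 2 µA libraries, and 0.106 and 0.098 CPM in the CF libraries. The treated and CF libraries did not overlap, with 2 µA replicate 2 the lowest of the treated libraries. Only 4 and 3 estimated counts stood behind the CF values, so the gene passed the filter on low counts through the libraries in which it was high, and it was picked for its fold. Its fitted log2 fold change of 8.42, which ranged from 7.59 to 8.79 over the alternative fits, is therefore given as a description, with no test. In the untreated MFs this gene stood at 104 and 92.8 CPM. Treated cells against MFs gave a log2 fold change of -1.44, also without a test, since the same treated libraries entered the choice of the gene. In a second deposited table, of whole-number counts, this gene had 71, 79, 57 and 10 counts in the treated libraries and 0 in both CF libraries, far fewer than the estimated counts of 220 to 2007 in the treated libraries.

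ENSRNOG00000045829 took the most reads of all genes called higher. It stood at 5710 and 5283 CPM in the 1 µA libraries, 4782 and 5972 CPM in the 2 µA libraries, and 1661 and 2693 CPM in the CF libraries. All treated libraries were above both CF libraries, and the CF replicates were further apart, relative to their mean, than the treated libraries, at 2177 ± 730 CPM (SD, n = 2) against 5437 ± 521 CPM (SD, n = 4). The log2 fold change was 1.32 with a standard error of 0.23 (adjusted p = 0.0138 by edgeR). Tested with glmTreat against a 2-fold change, the fold was the same and the gene was not called (adjusted p = 0.456). The MF libraries, at 6679 and 5762 CPM, overlapped the treated libraries. Treated cells against MFs gave a log2 fold change of -0.19, without a test, since the same treated libraries entered the choice of the gene.

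Among genes called lower, ENSRNOG00000019584 had the largest change under the rule for printed IDs. It stood at 14.1 and 3.31 CPM in the CF libraries and at 0.101, 0.099, 0.128 and 0 CPM in the treated libraries, which held 10 estimated counts in all. Every treated library was below both CF libraries, and the CF libraries differed more than 4-fold between themselves. The gene passed the filter through the CF and MF libraries and was picked for its fold, so its fitted log2 fold change of -6.69 is a description, with no test. It was -5.27 without CF replicate 1 and -8.72 without 2 µA replicate 1. The MFs lay between, at 1.27 and 0.865 CPM. Their log2 fold change against CFs was -3.03, also a description, since the same CF libraries entered the choice of the gene. The whole-number table gave 405 and 71 counts in CFs and 3, 2, 2 and 0 counts in the treated libraries.

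ENSRNOG00000001469 took the most reads of the genes called lower. Its level was 6978 and 16393 CPM in the CF libraries, 888 and 1323 CPM at 1 µA, and 943 and 2605 CPM at 2 µA. No treated library reached the lower CF library, and 2 µA replicate 2 was the highest of the treated libraries. The log2 fold change was -3.06 with a standard error of 0.47 (adjusted p = 0.00984 by edgeR). Untreated MFs were lower still, at 509 and 707 CPM. Their log2 fold change against CFs was -4.26, and treated cells against MFs gave 1.20. Both are descriptions with no test, since the same CF and treated libraries entered the choice of the gene.

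**Figure D2:**
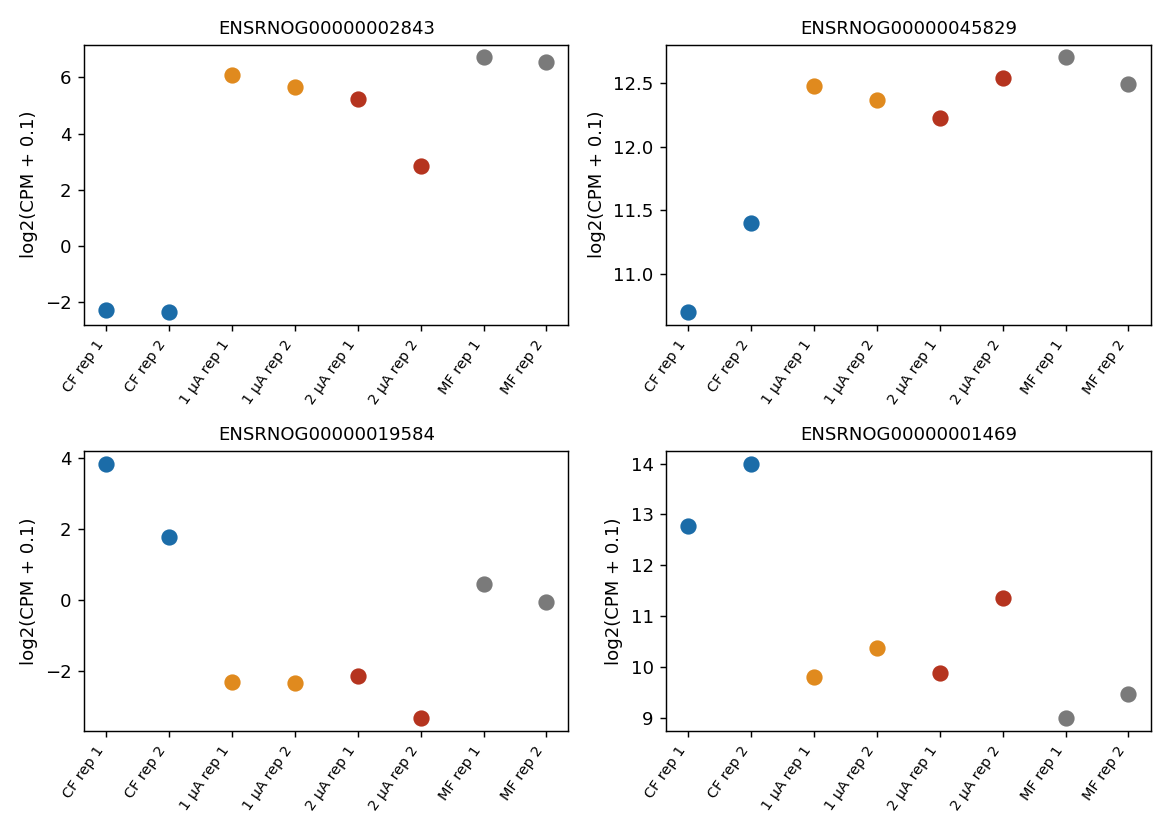
The 4 panels show log2(CPM + 0.1) of a single gene in each of the 8 libraries, coloured by group (blue CF, orange 1 µA, red 2 µA, grey MF). The upper genes were called higher and the lower genes called lower in treated cells, and in each panel the 4 treated libraries lie apart from both CF libraries.

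The same rule ranked 15 genes by fold change in each direction. The 15 genes called higher had log2 fold changes of 5.23 to 8.42, and in 12 of them 2 µA replicate 2 was the treated library closest to CFs. The 15 genes called lower ranged from -6.69 to -3.54, and 2 µA replicate 2 was closest in 7 of them. The median log2 fold change of MFs against CFs over the same genes was 7.27 for the former and -2.69 for the latter, beside 6.26 and -4.74 for treated cells against CFs. In MFs the range was wide, from 0.60 to 9.85 for the former. Both comparisons use the same CF libraries.

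Of the genes called higher, the 6 with the most reads took 1.45% of counts in the treated libraries on average and 0.382% in the CF libraries. Their log2 fold changes were 1.11 to 5.47. The 6 genes with the most reads among those called lower took 0.313% of counts in treated libraries and 1.67% in CF libraries, with log2 fold changes of -3.06 to -1.11. Against CFs, MFs ranged from 0.60 to 2.11 over the former and from -4.26 to 0.53 over the latter, so that MFs were not below CFs in every gene of the latter.

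The treated libraries did not lie equally far from CFs. Over the 584 genes called higher, the median difference in log2 CPM from the mean of both CF libraries was 2.14 in 1 µA replicate 1, 1.92 in 1 µA replicate 2, 1.96 in 2 µA replicate 1 and 1.62 in 2 µA replicate 2. For the 476 genes called lower the medians were -1.97, -1.90, -1.99 and -1.70 in the same order. The library of 2 µA replicate 2 was thus the nearest to CFs in both directions. It was the nearest of the 4 treated libraries in 362 of the genes called higher and in 229 of those called lower, together 55.8% of the called genes, whereas each of the other treated libraries was nearest in 12.5% to 17.0%. Over all 13849 tested genes it was the nearest in 36.5%. No test was made of a single library.

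**Figure D3:**
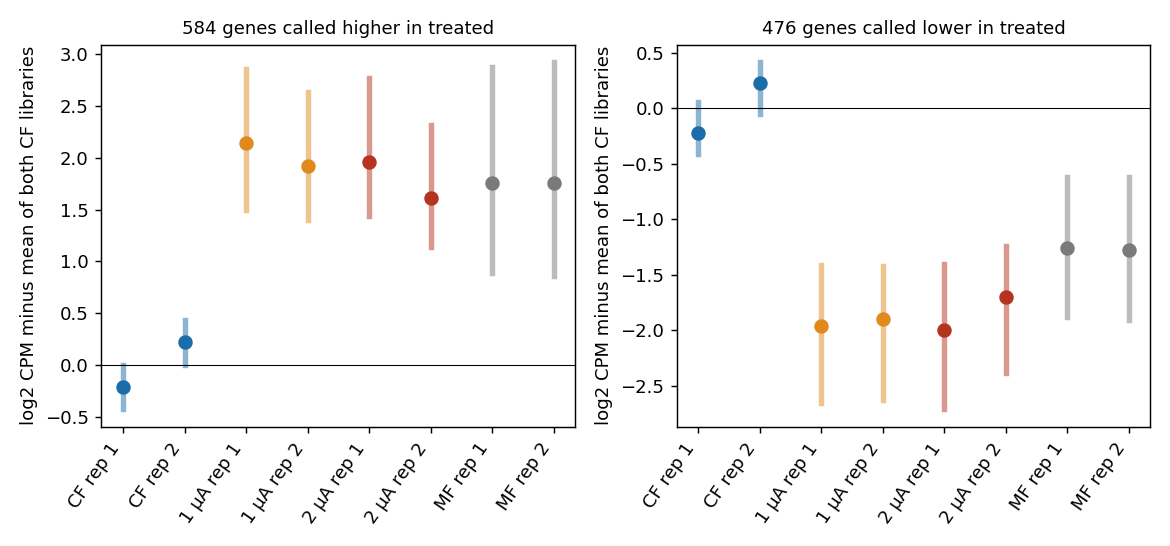
For each of the 8 libraries, points give the median and bars the quartiles of the difference in log2 CPM from the mean of both CF libraries, over the 584 genes called higher (left) and the 476 called lower (right) in treated cells. Among the treated libraries, 2 µA replicate 2 has medians of 1.62 and -1.70, the closest to 0 on both sides.

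The CF replicates differed from each other in the same genes. The median difference between them was 0.52 on the log2 CPM scale over the genes called higher and 0.59 over those called lower. Over all tested genes it was 0.26. The treated libraries were also further apart in the called genes. Their median range was 0.72 for genes called higher and 0.77 for those called lower, against 0.33 over all tested genes. Called genes were more frequent among genes with few reads, and the part of this in the gaps was not tested. CF replicate 2 was above CF replicate 1 in 422 of the 584 genes called higher (72.3%) and in 336 of the 476 called lower (70.6%), compared with 54.0% of all genes. For genes called higher CF replicate 2 was thus mostly the library closer to the treated cells, and for genes called lower mostly the one further away. The balance of the calls followed which CF library was used. Without CF replicate 1, 354 genes were called higher and 487 lower, and without CF replicate 2, 917 were called higher and 371 lower. The part of the spread between CF replicates in these shifts was not tested.

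On log2 CPM of all tested genes, treated and CF libraries lay at a mean Euclidean distance of 109, with 8 pairs between 96.3 and 122. The treated libraries were 58.0 apart on average over 6 pairs, from 49.6 to 69.1, and the CF libraries 73.5. Every treated library was therefore further from both CF libraries than from any other treated library. The mean distance to the CF libraries was 115 and 107 for the 1 µA libraries and 112 and 100.5 for the 2 µA libraries. With 4 libraries against 2, an exact permutation test over libraries cannot give a p below 0.0667, and none was made.

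Taken singly, 1 µA cells differed from CFs in 901 genes (6.51% of those tested), 529 (3.82%) higher and 372 (2.69%) lower. For 2 µA cells 695 genes (5.02%) were called, 400 (2.89%) higher and 295 (2.13%) lower. Over the 584 genes called higher in the pooled comparison, the median log2 fold change was 2.08 at 1 µA and 1.89 at 2 µA, and over the 476 genes called lower it was -2.11 and -1.93. These comparisons share the CF libraries. The counts moved with single libraries. At 1 µA, 138 and 233 genes were called without 1 µA replicates 1 and 2, and 490 and 489 without MF replicates 1 and 2. At 2 µA, 292 genes were called without 2 µA replicate 1, 439 and 452 without 1 µA replicates 1 and 2, and 346 and 345 without MF replicates 1 and 2. Without either 1 µA replicate fewer genes were thus called at 1 µA than at 2 µA. The direct test of 2 µA against 1 µA by edgeR called 1 gene (0.00722%), and 72 genes (0.52%) had an unadjusted p below 0.05, while DESeq2 called 7 genes. Of the 1060 genes that separated treated cells from CFs, 19 (1.79%) had such a p, and of the other 12789 genes 53 did (0.414%). The smaller number of calls at 2 µA is therefore not by itself a difference between the current densities. The share of 0.52% lies far below what a threshold of 0.05 would give with no difference at all. The few calls therefore do not show that the current densities were alike.

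Untreated MFs are given beside the treated cells for the same genes, and each of these comparisons shares libraries with the main one. Since treated cells were in 10% FBS and the serum of untreated MFs over that time is not given, current and serum cannot be told apart between treated cells and MFs. Over the 584 genes called higher in treated cells, MFs had a median log2 fold change of 1.89 against CFs, with quartiles of 0.91 and 3.03, beside 1.99 for the treated cells. The genes were chosen by the contrast of treated cells with CFs, so no test is given. Treated cells against MFs gave a median of 0.14 for these genes, with quartiles of -0.76 and 0.93. This median stood between changes in both directions, as 337 of the 584 genes (57.7%, beside 32.5% of all tested genes) had an unadjusted p below 0.05, 181 with treated cells above MFs and 156 with treated cells below. Over the 476 genes called lower, the median was -1.36 for MFs against CFs, with quartiles of -2.02 and -0.69, beside -2.07 for the treated cells. For these, treated cells against MFs gave a median of -0.86, with quartiles of -1.40 and -0.22. Of these genes, 267 (56.1%, beside 32.5% of all tested genes) had an unadjusted p below 0.05. In 244 of them treated cells were below MFs and in 23 above. The treated libraries that chose the genes also enter the comparison with MFs. In both lists these shares and directions therefore partly follow from the choice and carry no test.

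The deposited whole-number counts of the same libraries were tested in the same way. There, 894 of 13339 genes (6.7%) were called between treated cells and CFs, 507 (3.8%) higher and 387 (2.9%) lower. There were 11719 genes tested in both tables. Of the 860 called in the estimated counts, 756 (87.9%) were also called in the whole-number table, all in the same direction, and these are 93.4% of the 809 called there. Over those 860 genes the median log2 fold change was 1.92 in the estimated counts and 1.91 in the whole-number counts for genes called higher, and -1.87 and -1.85 for genes called lower. In 5 of the 860 genes the whole-number counts gave an absolute log2 fold change under 0.5, and in 1 gene the sign was opposite. A further 200 called genes were not tested in the whole-number table.

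**Figure D4:**
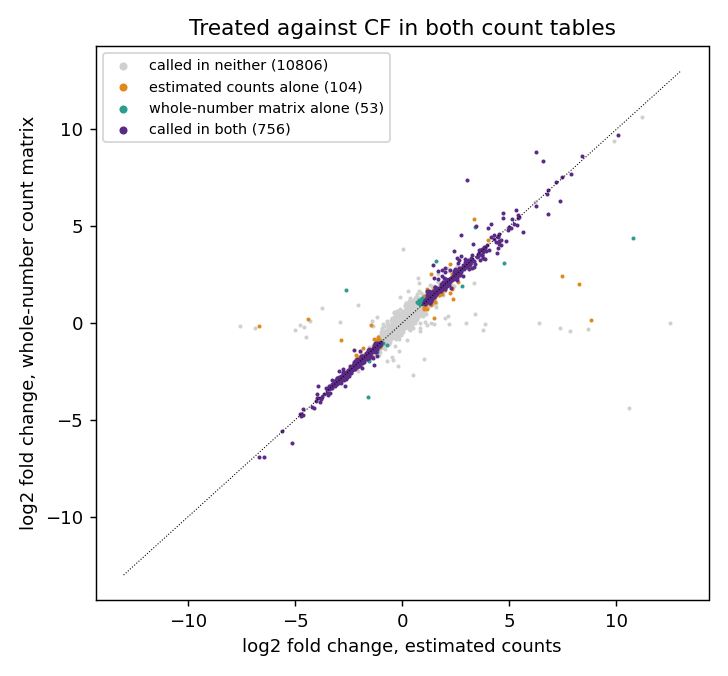
Each point is 1 of the 11719 genes tested in both count tables, with the log2 fold change of treated cells against CFs from the estimated counts on the x axis and from the whole-number counts on the y axis. The 756 genes called in both lie along the dotted line of equality, while a few genes with large changes in the estimated counts lie near 0 in the whole-number counts.

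Genes present on one side alone were few. There were 5 genes with at most 3 estimated counts over both CF libraries and at least 1 CPM in all 4 treated libraries. The whole-number table lists 4 of them, and in 2 of these the CF libraries held more than 50 counts on average, so that their absence from CFs depended on the table. In 1 of these, 123397 and 88651 whole-number counts in CFs stood beside estimated counts of 0. In the other direction, 1 gene had at least 1 CPM in both CF libraries and at most 3 counts over the 4 treated libraries. This gene is not listed in the whole-number table.

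Of the 1060 called genes, 491 (46.3%) were called in the same direction in all 8 fits that each left out 1 library, 259 higher and 232 lower. A group left with 1 library was assumed to vary like the other groups. In 404 genes (38.1%), 220 higher and 184 lower, the call was also made by DESeq2, under RLE and upper quartile scaling, with transcript length offsets and in the whole-number counts. Over these 404 genes the median log2 fold change was 2.07 for genes higher and -2.41 for genes lower in treated cells. Called genes not tested in the whole-number counts, 200 in all, could not be among them. Without 1 µA replicate 1, 645 genes were called in all, 341 higher and 304 lower, the smallest number among the 8 fits, and 310 genes were called lower without 1 µA replicate 2. Without MF replicate 1 or 2, which are no part of the comparison but enter the estimate of the spread, 389 or 387 genes were called higher.

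**Figure D5:**
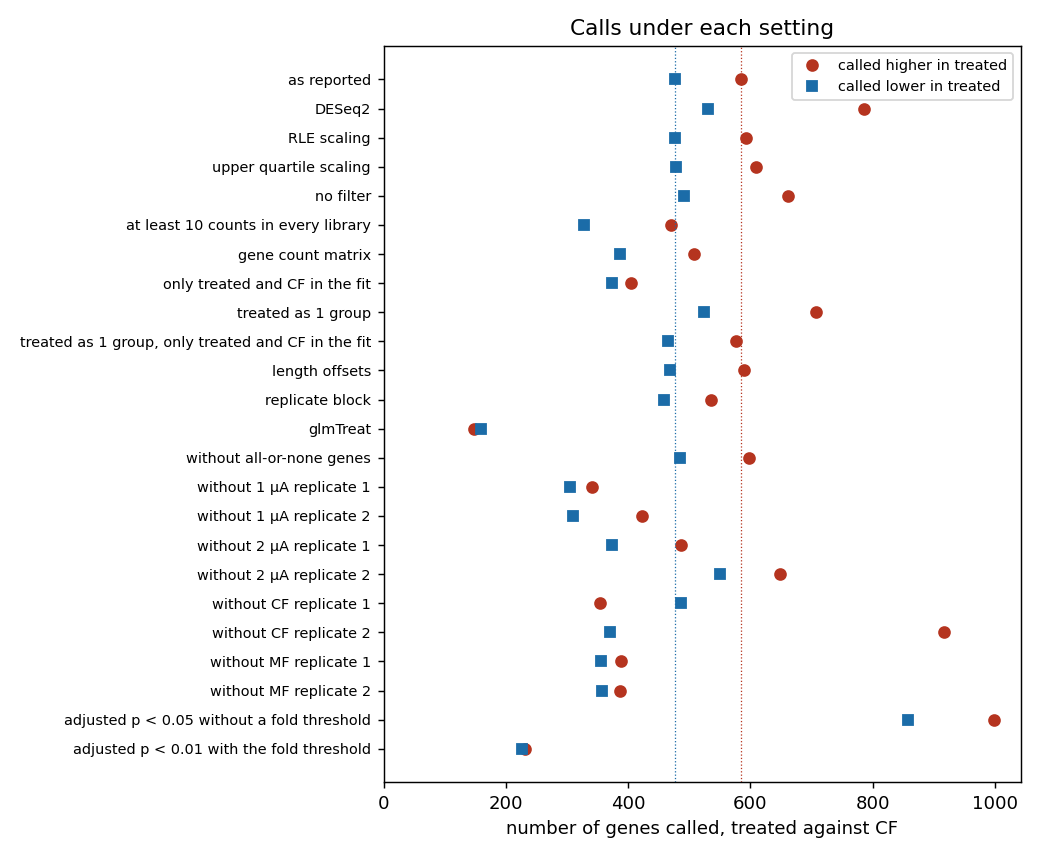
Red circles give the number of genes called higher and blue squares the number called lower in treated cells against CFs under each setting, and dotted lines mark the reported 584 and 476. Both directions hold more than 100 genes in each setting, and the widest gap between them, 917 against 371, is found without CF replicate 2.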

How the data were processed

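RNA sequencing libraries of 8 rat cell samples were grouped by their titles. The authors aligned reads to the rat transcriptome (rn6) with salmon and summarized them with tximeta to estimated counts. They also deposited these counts normalized with DESeq2 (a signal that also corrects for average transcript length), and variance stabilised values on a log2 scale. The submitters' processing notes give DESeq2 version 1.28.1, whereas the paper names a later version. A further deposited table holds whole-number counts for genes with a sum of at least 80 counts, whose counting step is not given in the sources used here, while the labels name fastp and STAR. No column of the tables was left unused.

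Estimated counts were rounded and tested with edgeR 4.0.16 in R 4.3.3 (filterByExpr, TMM, robust quasi-likelihood F test, 1 coefficient per group over 8 libraries, 4 residual degrees of freedom), with the mean of the 1 µA and 2 µA coefficients set against CF. The standard error is the log2 fold change divided by the root of F. Distances used log2 CPM with a prior count of 2. Replicates differed by more than sampling noise, with a chi-square per gene of 120 in CFs, 73.1 at 2 µA, 27.2 at 1 µA and 16.9 in MFs. The groups share 1 estimate of the spread per gene, so MFs, with the smallest value, enter the p-values of treated cells against CFs. The fit was tested on simulated data in which all groups had the same spread for a gene, unlike these replicates. Depth limits genes with few reads most, and intervals cover the spread between libraries alone.

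The comparison and all lists were chosen with earlier results of these data known. IDs printed are, in each direction, the called gene with the largest change (at least 5 CPM in the higher group, libraries that do not overlap, same direction in the whole-number table where listed) and the called gene with the most reads. Rules and lists by gene symbol could not be applied. Alternatives were DESeq2 1.42.0, other scalings, filters, thresholds, groups in the fit, length offsets, the whole-number counts, a replicate block and leaving out each library. Leaving out all-or-none genes was chosen after seeing the data.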

Additional observations from a re-analysis of the deposited data

Results flagged for a closer look

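The share of estimated counts in the 476 genes called lower was 0.737% and 0.763% in the 1 µA libraries and 0.713% in 2 µA replicate 1, and 1.04% in 2 µA replicate 2, whose gap to the next library was 0.849 of the whole range. Of 8 library measures and 5 genes tested in this way this was the only one marked, and chance marks about 1 in 20. Among the 1060 called genes 68 (6.42%) were marked likewise, 37 of them with 2 µA replicate 2 as the library apart, and over all 13849 tested genes 702 (5.07%) were marked, 276 of them with that library apart. Both shares of marked genes are close to 1 in 20, but they do not bear on which library stood apart. Over all tested genes 2 µA replicate 2 was that library in 39.3% of the marked genes. Whether it stood apart more often than the other treated libraries was not tested.

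ENSRNOG00000009596, chosen after its values were seen, was the single gene that edgeR called when 2 µA was set against 1 µA (adjusted p = 0.0248). It was also the second of the 15 genes ranked by fold change among those called lower in treated cells, where its fitted fold rests on the zeros at 2 µA. Its estimated counts were 645 and 408 at 1 µA, 0 in both 2 µA libraries, and 1173 and 740 in CFs, whereas the whole-number table gave 2912 and 2810, 2741 and 2960, and 3716 and 3241. In that table the log2 fold change of treated cells against CFs was -0.15 (adjusted p = 0.34 from edgeR), and the gene was not called.

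Outside the estimated counts, the whole-number table holds 1463 further gene IDs. Of the 1462 tested, 79 (5.40%) were called between treated cells and CFs, 45 higher and 34 lower.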

How the results depend on the processing

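For none of the shifts given here was the cause tested. The pooled counts of 1060 called genes, 584 higher and 476 lower, stayed within 1.5 times under DESeq2 (1315 in all), RLE and upper quartile scaling and both filters. The same held for the whole-number counts, the 3 other choices of groups, length offsets, the replicate block and without all-or-none genes. The lowest of these was 777 genes, 404 higher and 373 lower, with only treated and CF libraries in the fit. That fit kept 73.2% of the 1060 calls in the same direction. The pooled counts moved with the threshold, to 306 (147 higher, 159 lower) with glmTreat against a 2-fold change. They were 457 (231 and 226) at an adjusted p below 0.01 and 1857 (999 and 858) without a fold threshold. Leaving out 1 library gave 645 to 1288 genes, 341 to 917 higher and 304 to 550 lower.

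For 1 µA against CF (901), 518 genes were called with only treated and CF libraries in the fit, 186 with glmTreat, 234 at an adjusted p below 0.01 and 138 to 1191 with 1 library left out. For 2 µA against CF (695), these were 351, 131, 129 and 292 to 1020, and DESeq2 called 1075. Between the current densities edgeR called 0 genes with at least 10 counts in every library (49 at an unadjusted p below 0.05), in the whole-number counts (73), with only treated and CF libraries (52) and at an adjusted p below 0.01, and 0 or 1 with 1 library left out, while DESeq2 called 7. Non-overlapping genes were 40.7% to 69.6% with 1 library left out.

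The replicate numbers are not stated to pair libraries. Deviations of same-numbered libraries correlated at 0.24 between 1 µA and 2 µA, -0.17 between 1 µA and CF and -0.05 between 2 µA and CF. The replicate block gave 994 genes for the pooled comparison, 807 at 1 µA, 610 at 2 µA and 1 between the densities.

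Over 102 alternatives for the 5 printed genes, 98 kept the call and 4 lost it, none with a change of sign. The genes were picked from the called genes of these same data, so kept calls are no independent support. ENSRNOG00000002843 and ENSRNOG00000019584 kept the call in all 20 alternatives each, but their folds are given only as a description. ENSRNOG00000045829 was lost with glmTreat, at the same fold (adjusted p = 0.456), and ENSRNOG00000009596 in the whole-number counts and in both fits with treated cells as 1 group (adjusted p = 0.34, 0.444 and 0.509).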

Other observations

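The authors' normalized values divide each estimated count by a factor that includes the average transcript length of the gene in that library, so the ratio of the tables gives this length relative to other genes. Of 12558 genes with at least 10 counts in every library, 29 differed by more than 1.25-fold in relative length between treated cells and CFs, 14 of them without overlap of the libraries. Among the 780 called genes with such counts 3 did so, and 94.2% of them differed by less than 5%, beside 94.7% of all 12558 genes.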
